A study of Mus musculus with 11 samples.

Results

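Regulators of G-protein signalling were followed in the trigeminal ganglion, which holds the sensory neurons of the face, in mouse embryos of embryonic day 13.5 with and without an intact Pou4f1 gene. Pou4f1 encodes Brn3a, a POU homeodomain transcription factor of sensory neurons. The genes were Rgs10, Rgs7bp, Rgs4, Rgs16, Rgs5 and Rgs2, 6 of the 13675 genes named on the arrays, and all 12 probe sets annotated to them were used. The groups were Brn3a knockout, Brn3a heterozygote and Brn3a wild-type ganglia. RNA was hybridised to 2 Affymetrix array types with different probe sets, U74Av2 (2 knockout, 2 heterozygote and 2 wild-type arrays) and U74Bv2 (2 knockout, 2 heterozygote and 1 wild-type array). About 10 to 12 ganglia of the same genotype were pooled for an array. By the design text, the mutant at this age has defects of axon growth and has not yet lost most of its neurons. The sources used here give neither the strain nor the knockout allele. In a whole ganglion, fewer cells of a type and less RNA per cell cannot be told apart.

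RGS proteins share a domain that speeds the hydrolysis of GTP by G-protein alpha subunits, which shortens the signal of receptors coupled to Gi, Go and Gq. The family is sorted by sequence. The R4 group (Rgs2, Rgs4, Rgs5, Rgs16) consists of short proteins with little outside the RGS domain, and Rgs10 is a short protein of the R12 group. The R7 group (Rgs6, Rgs7, Rgs9, Rgs11) is bound to the G-protein subunit Gnb5 and is held at the plasma membrane by an anchor, Rgs7bp, which itself has no RGS domain. In sensory neurons such proteins act downstream of receptors for opioids, neuropeptides and GABA.

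Knockout and the other genotypes differed for 3 of these genes, and in both directions. The difference between knockout and wild-type ganglia on the log2 scale was -3.30 ± 0.26 for Rgs10, -2.28 ± 0.25 for Rgs7bp and 1.15 ± 0.21 for Rgs4 (SE). Rgs16 and Rgs5 did not pass the test in any comparison, and the only probe set for Rgs2 was too dim to be tested. The knockout arrays lay apart from both other genotypes at every probe set of the 3 genes but 1 dim one of Rgs10. With so few arrays such a separation can arise by chance, and its share over all probe sets is not given here. Heterozygote and wild-type ganglia were not called different for any of the 3 genes.

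The 3 genes lie on separate chromosomes, Rgs10 on chromosome 7 (128373621 to 128419506), Rgs7bp on chromosome 13 (104945904 to 105054930) and Rgs4 on chromosome 1 (169741477 to 169747642), in assembly GRCm38.p6. Rgs16 (153740353 to 153745468), Rgs5 (169655501 to 169695813) and Rgs2 (143999338 to 144004149) lie on chromosome 1 as well, and 45663 bases separate Rgs5 from Rgs4. The 250 bases before the start site of the genes that differed are shown because Brn3a is a DNA-binding factor and its loss went with lower Rgs10 and Rgs7bp and higher Rgs4. They are RefSeq sequence of GRCm38.p6, 5′ to 3′ along the gene, all from the minus strand: chr7:128418173-128418422, chr13:105054931-105055180 and chr1:169747643-169747892. The Rgs10 window belongs to a start site inside the annotated span of the gene. Capitals mark a match to one of the motifs searched.
Rgs10: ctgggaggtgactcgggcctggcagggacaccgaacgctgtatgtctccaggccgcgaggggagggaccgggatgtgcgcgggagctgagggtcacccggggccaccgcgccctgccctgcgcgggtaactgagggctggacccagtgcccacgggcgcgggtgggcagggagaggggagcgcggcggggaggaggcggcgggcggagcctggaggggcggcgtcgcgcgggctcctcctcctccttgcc
Rgs7bp: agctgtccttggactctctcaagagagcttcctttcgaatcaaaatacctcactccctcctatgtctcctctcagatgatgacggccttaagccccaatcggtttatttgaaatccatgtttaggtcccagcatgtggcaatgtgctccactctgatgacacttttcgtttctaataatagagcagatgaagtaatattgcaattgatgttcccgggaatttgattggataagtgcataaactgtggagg
Rgs4: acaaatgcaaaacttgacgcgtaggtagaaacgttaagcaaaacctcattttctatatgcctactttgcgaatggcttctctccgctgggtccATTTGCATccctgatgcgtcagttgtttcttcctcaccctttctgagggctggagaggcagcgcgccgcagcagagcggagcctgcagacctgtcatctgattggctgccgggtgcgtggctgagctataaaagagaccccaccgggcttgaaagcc

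Letters of 3 motifs known for POU homeodomain proteins were searched on both strands of these windows and of those of Rgs16, Rgs5 and Rgs2. They were the octamer ATGCAAAT, the longer ATAATTAAT and the homeodomain core TAATTA, which is contained in ATAATTAAT. The Rgs4 window held the octamer on the opposite strand (ATTTGCAT), beginning 157 bases before the start site. The windows of the other 5 genes, Rgs10 and Rgs7bp among them, held none of the 3. Of the 32851 promoter windows of the table, 1.6% held ATGCAAAT, 0.259% held ATAATTAAT and 4.84% held TAATTA. A match is only a description of these letters, and the motifs were chosen with the sequences in view. The windows differed in composition: G and C made up 76.4% of the Rgs10 window and 43.2% of the Rgs7bp window, at the 97.2 and 20.1 percentiles of the table, and 53.6% of the Rgs4 window.

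Signals are MAS5 intensities, 1 per probe set and array, on a linear scale, and each sentence on signals lists array 1 before array 2 of a genotype. A signal of 1 probe set is not set against that of another. The marker sums, however, add signals of different probe sets, so the brightest genes of a list weigh most in them. Differences are in log2(signal + pseudocount) with the SE of the limma model, the pseudocount was 50 on U74Av2 and 49.8 on U74Bv2, and folds on this scale understate the change of dim probe sets. A difference was called where the Benjamini-Hochberg adjusted p, over everything tested on that array type, was under 0.05. Of the 12 probe sets, 7 were bright enough to be tested, 5 on U74Av2 and 2 on U74Bv2. They stood for 5 of the 6 genes. The labels name pools and no animals, so p-values reflect only how much these arrays vary, and their small number limits the precision.

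Pou4f1 itself had signals of 549.8 and 904.3 in knockout, 2196 and 3570.1 in heterozygote and 3313.1 in wild-type ganglia on U74Bv2, a knockout minus wild-type difference of -2.15 ± 0.34 (limma adjusted p = 0.0245). The sources used here do not say whether its probes lie in the deleted part. Sensory neuron markers were measured in all genotypes: summed over 13 of 14 listed genes on U74Av2, they reached 78240 to 87538 in knockout, 89743 to 112111 in heterozygote and 83391 to 84776 in wild-type ganglia. The 9 marker lists held 96 genes, and limma called 0 of the 65 tested on U74Av2 and 0 of the 10 tested on U74Bv2 between knockout and wild-type, with 8 (12.3%; 2 higher, 6 lower) and 0 at an unadjusted p under 0.05, where 5.11% of all U74Av2 probe sets and 11.2% of all U74Bv2 probe sets were. Of the 13 sensory neuron markers, 7 had negative differences from wild-type (median -0.06) and 12 from heterozygote (median -0.24), beside 0.02 for all probe sets. Against wild-type, Prph (-0.87 ± 0.29), an intermediate filament of sensory neurons, Scn10a (-0.78 ± 0.32), a sodium channel of nociceptors, and the RNA-binding Elavl4 (-0.67 ± 0.22) had an unadjusted p under 0.05. The differences of 6 other sensory neuron markers from wild-type were positive, up to 0.60, and none of them had such a p. On U74Bv2, Elavl4 differed from wild-type by -0.33 ± 0.21, without an unadjusted p under 0.05. Some summed levels on U74Av2 were higher in knockout ganglia than in wild-type ones. Glial markers (7 of 10 genes) summed to 20420 to 23827 in knockout, 19139 to 21246 in heterozygote and 16965 to 18387 in wild-type ganglia. The brightest of them was Fabp7, at 9735.9 to 16258.1 over the arrays. Of the 6 tested glial markers, 4 had positive and 2 negative differences from wild-type (-0.67 to 0.50). From heterozygote 5 were positive and 1 negative, that of Gfra3 (-0.88 ± 0.22). Mesenchymal markers (9 of 10) summed to 11197 to 12390 in knockout, 9376 to 10010 in heterozygote and 8620 to 9785 in wild-type ganglia, and red cell markers (6 of 8) to 48182 to 59364 in knockout, 44719 to 67022 in heterozygote and 37757 to 45461 in wild-type ganglia. Against wild-type, all 7 tested mesenchymal markers had positive differences, and of the 6 tested red cell markers 4 were positive and 2 negative. The part of these cells in the results below was not tested. On U74Av2 the arrays numbered 1 and 2 differed in a control signal, and the labels do not say what the number marks. The geometric mean of the 18S ribosomal control signals was 12803, 6745 and 5173 on the number 1 arrays of knockout, heterozygote and wild-type. On the number 2 arrays of the same genotypes it was 974, 518 and 511. Differences within a number are therefore given beside the pooled ones. Within each number the 18S signal was also highest in knockout, and differences within a number do not remove that.

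**Figure D1:**
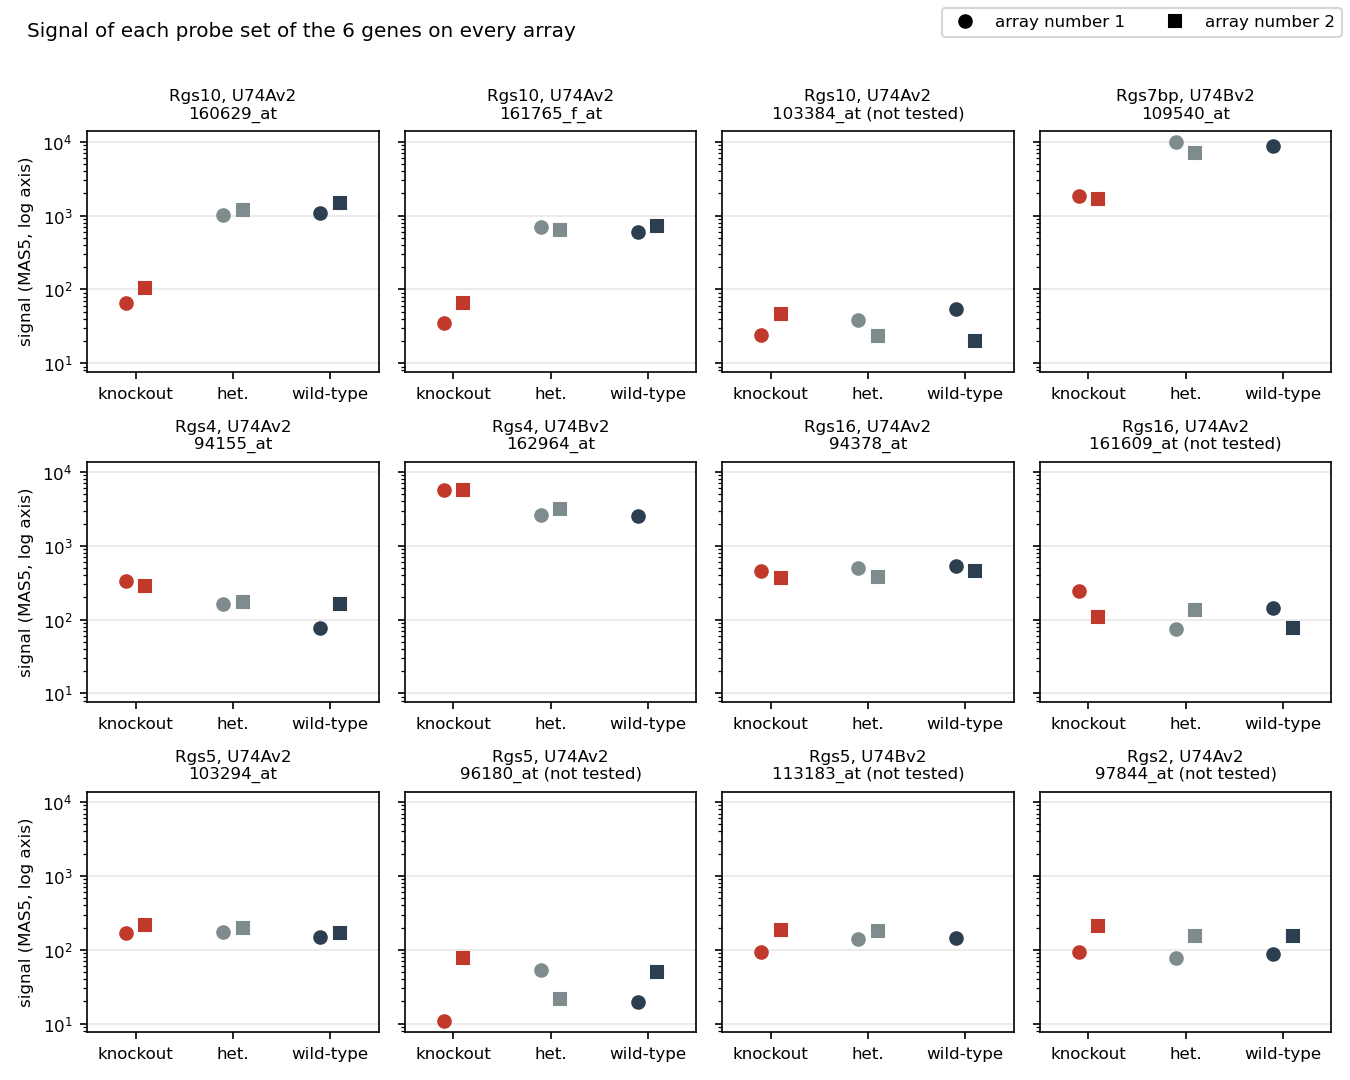
MAS5 signal (log axis) of all 12 probe sets on each array, with knockout, heterozygote and wild-type from left to right, circles for array number 1 and squares for array number 2. The knockout arrays lie below the others for 2 Rgs10 probe sets (35.6 to 104.3 in knockout, at least 597.4 in the rest) and for Rgs7bp. They lie above the others for both Rgs4 probe sets. At the remaining probe sets the range of the knockout arrays overlaps that of the other arrays.

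Rgs10 showed the largest difference of the 5 tested genes. Its product accelerates GTP hydrolysis by Gi-family alpha subunits and is also known from microglia and macrophages. Probe set 160629_at had signals of 65.5 and 104.3 in knockout, 1015.8 and 1177.3 in heterozygote and 1087.6 and 1461.6 in wild-type ganglia. Both knockout arrays were far below the other 4, without overlap, and heterozygote and wild-type arrays overlapped. The means were 84.9 ± 27.4 in knockout, 1097 ± 114 in heterozygote and 1275 ± 264 in wild-type ganglia (SD, n = 2 each). Knockout differed from wild-type by -3.30 ± 0.26 (95% interval -3.91 to -2.68, 9.82-fold lower, limma adjusted p = 0.00807) and from heterozygote by -3.10 ± 0.26 (interval -3.71 to -2.48, adjusted p = 0.015). The difference from wild-type was -3.30 among number 1 arrays and -3.29 among number 2 arrays.

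A second Rgs10 probe set, 161765_f_at, went the same way. Its suffix marks a design that may also match related transcripts. Its signals were 35.6 and 66 in knockout, 693.6 and 642.7 in heterozygote and 597.4 and 726 in wild-type ganglia, again without overlap. The difference was -2.83 ± 0.26 against wild-type (7.11-fold lower, limma adjusted p = 0.0114) and -2.85 ± 0.26 against heterozygote (adjusted p = 0.015). The third, 103384_at, was dim, with 24.5 and 47 in knockout, 38.3 and 23.3 in heterozygote and 54.6 and 20 in wild-type ganglia. It was not tested, overlapped between genotypes and did not show the difference that the other probe sets of Rgs10 showed.

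The size of the Rgs10 difference depends on the pseudocount, and its calls rest on few arrays. With pseudocount shares of 0.02 and 0.4 in place of 0.1, the difference from wild-type was -3.77 and -2.36 at 160629_at and -3.51 and -1.78 at 161765_f_at, and that from heterozygote was -3.57 and -2.19 and -3.52 and -1.79, all called. Against wild-type, 160629_at was -3.09 both without knockout array 1 (adjusted p = 0.0768) and without wild-type array 2 (0.0842), in a range of 0.000231 to 0.0842 over 15 alternatives. In the same comparison 161765_f_at was -2.61 when knockout array 1 was left out (0.119), -2.96 for wild-type array 1 (0.0708) and -2.70 for wild-type array 2 (0.103), in a range of 0.00134 to 0.119. Against heterozygote, both lost the call without knockout array 1 (-2.89 and -2.63, adjusted p = 0.142), without heterozygote array 1 (-3.20 and -2.80, 0.118) and without heterozygote array 2 (-3 and -2.90, 0.144). Without knockout array 1, limma called 0 probe sets on U74Av2 in either comparison, with 287 and 319 at an unadjusted p under 0.05. Against the mean of heterozygote and wild-type arrays the difference of 160629_at was -3.20 (adjusted p = 0.0037), which was lost only without knockout array 1 (0.0674).

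Since Rgs10 is also a gene of macrophages, markers of these cells are given beside it. Summed over all 13 listed genes they reached 1536 to 1719 in knockout, 1556 to 1781 in heterozygote and 1594 to 1666 in wild-type ganglia. limma called 0 of the 5 that were tested, with 0 at an unadjusted p under 0.05. Knockout minus wild-type was 0.27 ± 0.31 for Csf1r, -0.05 ± 0.30 for Cd68, -0.54 ± 0.34 for C1qa, 0.13 ± 0.31 for C1qb and 0.10 ± 0.23 for Cx3cr1. Against heterozygote C1qa, a complement subunit, differed by -0.70 ± 0.34. The other listed markers were too dim to be tested, and the lowest single signal was that of Lyz2, at 6 to 44.3 over the arrays. The part of these cells in the Rgs10 result was not tested.

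Rgs7bp, the membrane anchor of the R7 proteins, was lower in knockout ganglia as well. Its only probe set, 109540_at on U74Bv2, had signals of 1865.3 and 1683.8 in knockout, 9835.4 and 7081.8 in heterozygote and 8825.9 in wild-type ganglia. The knockout arrays lay close together and far below the other 3. The means were 1775 ± 128 in knockout and 8459 ± 1947 in heterozygote ganglia (SD, n = 2 each), beside 8826 on the single wild-type array. Knockout differed from wild-type by -2.28 ± 0.25 (interval -2.85 to -1.72, 4.87-fold lower, limma adjusted p = 0.00532) and from heterozygote by -2.20 ± 0.20 (interval -2.67 to -1.74, adjusted p = 0.00157). Within number 1 arrays the difference was -2.21 against wild-type and -2.37 against heterozygote, and within number 2 arrays it was -2.04 against heterozygote. With a single wild-type array, the fit takes its variation to equal that of the other genotypes. Rgs7bp remained called in both comparisons under every alternative computed, with adjusted p up to 0.0397 and 0.0166. On these arrays the 4 sensory neuron markers measured summed to 46081 to 54165 in knockout, 49026 to 52998 in heterozygote and 54029 in wild-type ganglia.

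The proteins that Rgs7bp anchors were measured on U74Av2. Rgs7, an R7 protein of neurons, had signals of 209.2 and 288.5 in knockout, 424 and 648.8 in heterozygote and 514.9 and 628.1 in wild-type ganglia. The knockout arrays were again the lowest, without overlap. The difference was -1.06 ± 0.28 against wild-type (interval -1.73 to -0.39) and -0.96 ± 0.28 against heterozygote, and neither passed the test (limma adjusted p = 0.517 and 0.598). With array number as a block both were called (limma adjusted p = 0.0293 and 0.0394). That setting called 130 and 129 of all tested U74Av2 probe sets, where the main fit called 19 and 14. Within numbers the Rgs7 difference was -1.12 and -1 against wild-type. Rgs11 (102650_at) had 97.9 and 77.8 in knockout, 401.4 and 481.6 in heterozygote and 87.5 and 421.6 in wild-type ganglia. Wild-type array 1 lay with the knockout arrays, so the groups overlapped, and the differences of -0.89 ± 0.54 from wild-type and -1.83 ± 0.54 from heterozygote were not called (limma adjusted p = 1 and 0.587). Another Rgs11 probe set, 161309_r_at, was dim (5.8 to 28.9 over the arrays) and not tested. Its knockout minus wild-type difference was -0.05 among number 1 arrays and 0.11 among number 2 arrays. Rgs6 and Rgs9 were too dim to be tested, at most 81 on any array. Gnb5, the obligate partner of the R7 proteins, differed by 0.05 ± 0.40 between knockout and wild-type (limma adjusted p = 1).

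Rgs4 was higher in knockout ganglia, in contrast to Rgs10 and Rgs7bp. It is a GTPase-activating protein for Gi and Gq alpha subunits that is abundant in neurons. On U74Bv2, 162964_at had signals of 5616 and 5722.9 in knockout, 2615.1 and 3112.2 in heterozygote and 2536.1 in wild-type ganglia. Both knockout arrays were above all others. The means were 5669 ± 75.6 in knockout and 2864 ± 352 in heterozygote ganglia (SD, n = 2 each), beside 2536 on the wild-type array. Knockout differed from wild-type by 1.15 ± 0.21 (interval 0.67 to 1.62, 2.21-fold higher, limma adjusted p = 0.0403) and from heterozygote by 0.98 ± 0.17 (interval 0.59 to 1.37, adjusted p = 0.0256). Within number 1 arrays these were 1.13 and 1.09, and within number 2 arrays the difference from heterozygote was 0.87.

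On U74Av2 the other Rgs4 probe set, 94155_at, had 329.4 and 282.4 in knockout, 162.2 and 173 in heterozygote and 78 and 161.7 in wild-type ganglia. The order of genotypes was the one on U74Bv2, without overlap between knockout and the rest. The difference of 1.11 ± 0.31 from wild-type (interval 0.37 to 1.85) was close to that of 162964_at, but it was not called among the U74Av2 probe sets (unadjusted p = 0.00958, limma adjusted p = 0.597). It was 1.57 among number 1 arrays and 0.65 among number 2 arrays. Against heterozygote it was 0.71 ± 0.31 (interval -0.04 to 1.45, adjusted p = 1).

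The Rgs4 call depended on settings of the test more than that of Rgs7bp did. Against wild-type it was lost without the filter on dim probe sets (adjusted p = 0.138), without the intensity trend (0.123), with arrays centred on their medians (0.104) and without knockout array 2 (1.13, 0.0576), in a range of 0.00264 to 0.138. Against heterozygote it was lost under the same settings (0.0881, 0.0892 and 0.0538), without knockout array 2 (0.96, 0.0611) and without heterozygote array 1 (0.85, 0.0792). The difference from the mean of heterozygote and wild-type, 1.06 (limma adjusted p = 0.0097), remained called under all 12 alternatives computed for it, with adjusted p up to 0.0457. Sox10, the 1 glial marker measured on U74Bv2, was at 3082 to 4517 in knockout, 2863 to 3063 in heterozygote and 2904 in wild-type ganglia. Its part in the Rgs4 result was not tested.

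The remaining R4 genes showed no called difference. Rgs16, whose product acts on Gi and Gq alpha subunits, had signals of 452.8 and 360.4 in knockout, 507.4 and 377.5 in heterozygote and 539.2 and 448.4 in wild-type ganglia at 94378_at. The genotypes overlapped, and the difference from wild-type was -0.25 ± 0.25 (interval -0.85 to 0.34). Its dimmer probe set, 161609_at, was not tested and had 241.7 and 107.1 in knockout, 74.7 and 133.1 in heterozygote and 141.9 and 75.9 in wild-type ganglia.

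Rgs5, best known as a gene of pericytes and vascular smooth muscle, had 170.9 and 215.8 in knockout, 176.5 and 194.7 in heterozygote and 149.2 and 166.6 in wild-type ganglia at 103294_at. Both knockout signals were above both wild-type signals but overlapped with heterozygote, and the difference from wild-type was 0.22 ± 0.26 (interval -0.39 to 0.83). The dim probe sets 96180_at, at 10.7 to 76.3 on U74Av2, and 113183_at, at 92.1 to 188.1 on U74Bv2, overlapped between genotypes. Pericyte markers (10 of 11 on U74Av2) summed to 1986 to 2466 in knockout, 2319 to 2566 in heterozygote and 2398 to 2686 in wild-type ganglia.

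Rgs2, which prefers Gq alpha subunits, fell just short of the filter, at the 39.9 percentile of mean log2 signal where the 40th was required. Its signals were 93.7 and 212.4 in knockout, 78.4 and 152.8 in heterozygote and 88.9 and 153.1 in wild-type ganglia. The number 2 array was higher than the number 1 array in all 3 genotypes. Within number 1 arrays knockout minus wild-type was 0.05, and within number 2 arrays it was 0.37.

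Counted by probe set, 2 of the 5 tested on U74Av2 were called lower in knockout ganglia when set against wild-type, both of them Rgs10, where 0.148% of all 7453 tested probe sets were called lower and 0.255% in either direction. The same 2 were called lower against heterozygote, where the shares were 0.107% lower, 0.0805% higher and 0.188% in either direction. On U74Bv2 both tested probe sets were called against wild-type, Rgs7bp lower (0.927% of 7446 tested probe sets were) and Rgs4 higher (0.470% were), with 1.40% called in either direction. Both were called against heterozygote too, where 1.20% were called lower, 0.510% higher and 1.71% in either direction. The median difference of all tested probe sets was 0.02 in each of these comparisons. The comparisons with wild-type and with heterozygote share the knockout arrays. The genes were chosen with earlier results of these data known. Setting their counts beside the shares of all probe sets therefore cannot show whether RGS genes differed more often than others.

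Loss and gain are set side by side by their intervals against wild-type. These were -3.91 to -2.68 and -3.43 to -2.23 for the 2 tested probe sets of Rgs10, -2.85 to -1.72 for Rgs7bp, and 0.67 to 1.62 (162964_at) and 0.37 to 1.85 (94155_at) for Rgs4. In absolute size the interval of 94155_at overlaps that of Rgs7bp. The sizes were not tested against each other. Between heterozygote and wild-type ganglia no difference was called: heterozygote minus wild-type was -0.20 ± 0.26 (interval -0.81 to 0.42) for Rgs10, -0.08 ± 0.25 (interval -0.64 to 0.48) for Rgs7bp and 0.17 ± 0.21 (interval -0.31 to 0.64) for Rgs4. limma called 0 of the 7 probe sets in this comparison, with 0 at an unadjusted p under 0.05, where 0% of all tested probe sets were called on either array type. Only 0.698% of all U74Av2 and 3.8% of all U74Bv2 probe sets had an unadjusted p under 0.05 here. The counts of 0 therefore say little about these genes and do not show that heterozygote and wild-type are equal. The Rgs4 value given here is that of 162964_at. At 94155_at heterozygote minus wild-type was 0.4 ± 0.31 (interval -0.34 to 1.14), which was not called either. The intervals leave room for differences down to -0.81 for Rgs10 and, at 94155_at, up to 1.14 for Rgs4.

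**Figure D2:**
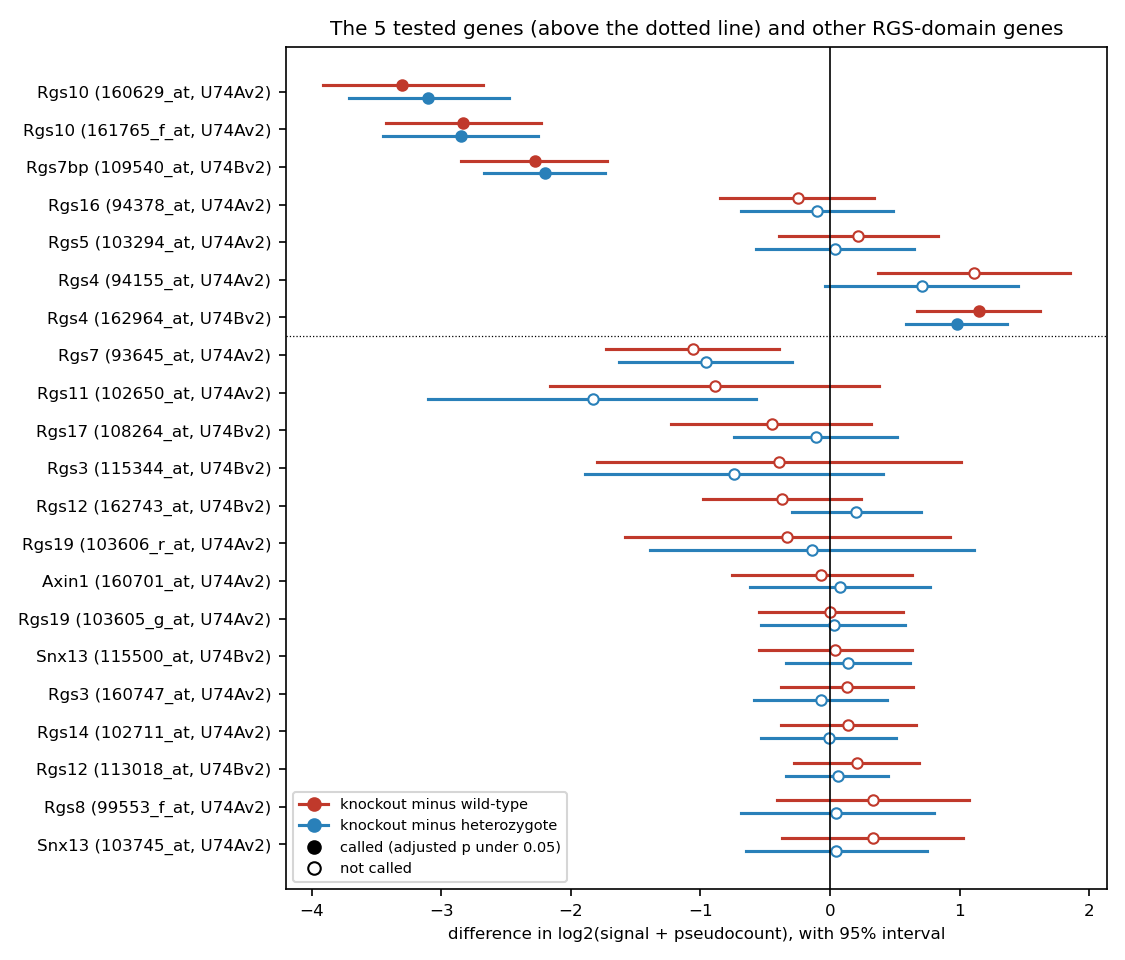
Difference in log2(signal + pseudocount) with its 95% interval for the tested probe sets of the 5 genes (above the dotted line) and of other RGS-domain genes, knockout minus wild-type in red and knockout minus heterozygote in blue, with filled points for called differences. Rgs10 and Rgs7bp lie left of -2 and Rgs4 near 1, while the other RGS-domain genes are not called and those left of -0.5 against wild-type are Rgs7 and Rgs11.

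Other genes with an RGS domain or of that family were represented by 15 genes on the arrays, 8 tested on U74Av2 and 4 on U74Bv2. limma called none of them against wild-type, with 1 and 0 at an unadjusted p under 0.05 (5.11% and 11.2% of all probe sets), and the median difference was 0.03 (from -1.06 to 0.33) on U74Av2 and -0.18 (from -0.45 to 0.21) on U74Bv2. Rgs3, an R4 protein and the brightest of them on U74Av2, differed by 0.13 ± 0.22 there and by -0.39 ± 0.62 on U74Bv2. Axin1, the RGS-domain scaffold of the beta-catenin destruction complex, differed by -0.07 ± 0.29. Rgs14 and Rgs12, which share the R12 group with Rgs10, differed by 0.14 ± 0.22 (Rgs14) and by 0.21 ± 0.21 and -0.37 ± 0.27 (2 probe sets of Rgs12). Rgs8, an R4 protein measured by a probe set of relaxed design, differed by 0.33 ± 0.31. Rgs17, a regulator of Gz and Gi, differed by -0.45 ± 0.34. The 2 tested Rgs19 probe sets, both of relaxed design, gave 0.00 ± 0.23 and -0.33 ± 0.53. Snx13, a sorting nexin with an RGS domain, gave 0.33 ± 0.30 on U74Av2 and 0.04 ± 0.26 on U74Bv2.

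The wider pathway was taken from 7 lists of 141 genes, which include these RGS-domain genes. Between knockout and wild-type, limma called 0 of the 59 tested on U74Av2 and 0 of the 30 tested on U74Bv2. At an unadjusted p under 0.05 there were 5 (8.47%; 2 higher, 3 lower) and 4 (13.3%; 2 higher, 2 lower), where 5.11% and 11.2% of all probe sets were, and the medians were 0 and 0.03. Against heterozygote the counts called were likewise 0 and 0, with 8 (13.6%; 2 higher, 6 lower) and 4 (13.3%; 2 higher, 2 lower) at an unadjusted p under 0.05, where 5.25% and 9.67% of all probe sets were.

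Alpha subunits, the substrates of RGS proteins, had medians of 0.08 over 10 tested genes and -0.06 over 6. Gnas, the stimulatory subunit, measured by a probe set shared between transcripts, differed by 0.59 ± 0.28 and Gnai2 by 0.00 ± 0.20 on U74Av2. Gnaz differed by -0.18 ± 0.20 and Gnai3 by 0.12 ± 0.20 on U74Bv2. Their U74Av2 probe sets gave 0.62 ± 0.27 for Gnaz, so its probe sets disagreed in sign, and 0.15 ± 0.20 for Gnai3. Beta and gamma subunits had medians of -0.04 over 9 genes and -0.32 over 5. Of these, Gng3 differed by -0.46 ± 0.20 and Gnb2 by 0.24 ± 0.19 on U74Av2, and Gng2 by 0.67 ± 0.26 and Gng8 by -0.39 ± 0.21 on U74Bv2. None of these was called.

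Receptor kinases and arrestins, which switch off the receptor rather than the G protein, were tested as 3 genes on U74Av2 and 1 on U74Bv2. Grk6 differed by 0.25 ± 0.25, Arrb1 by -0.32 ± 0.26 and Arrb2 by -0.18 ± 0.21. Among other modulators (medians of -0.06 over 4 genes and -0.12 over 5), Ric8a, a chaperone of alpha subunits, differed by 0.01 ± 0.23 and Pcp2 by -0.12 ± 0.65 on U74Av2. On U74Bv2, Arhgef12, an RGS-domain exchange factor for RhoA, differed by -0.13 ± 0.20 and Pdcl, a phosducin-like chaperone of beta and gamma subunits, by 0.21 ± 0.19.

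Effectors had medians of -0.09 over 8 genes and 0.03 over 5. The adenylyl cyclases Adcy6 and Adcy1 differed by -0.22 ± 0.23 and 0.16 ± 0.31. Plcb1, the phospholipase downstream of Gq, differed by 0.07 ± 0.39 on U74Av2 and by -0.70 ± 0.20 on U74Bv2 (limma adjusted p = 1 and 0.212). Its probe sets differed in sign, but the SE on U74Av2 was wide and they were not tested against each other. Against the mean of heterozygote and wild-type, where 2.55% of U74Bv2 probe sets were called, Plcb1 (-0.73 ± 0.15, limma adjusted p = 0.049) and Gnal, the olfactory-type stimulatory alpha subunit (-0.75 ± 0.16, 0.0499), passed the threshold narrowly. They were 2 of the 30 tested there. On U74Av2 that comparison called 0 of the 59, beside 0.416% of all probe sets. At an unadjusted p under 0.05 there were 9 (15.3%; 3 higher, 6 lower), beside 6.52% of all probe sets.

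Receptors coupled to Gi, Go and Gq had medians of 0.05 over 17 tested genes and 0.35 over 4. The brightest were F2r, a thrombin receptor (0.68 ± 0.26), and Gabbr1, a subunit of the GABA-B receptor (-0.18 ± 0.23), on U74Av2, and Ednrb, an endothelin receptor (0.18 ± 0.27), and Cnr1, the cannabinoid receptor of neurons (0.55 ± 0.24), on U74Bv2. Npy1r, a receptor for neuropeptide Y and the pathway gene with the lowest adjusted p on U74Av2, differed by -2.65 ± 0.45 (limma adjusted p = 0.134) and was not called.

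**Figure D3:**
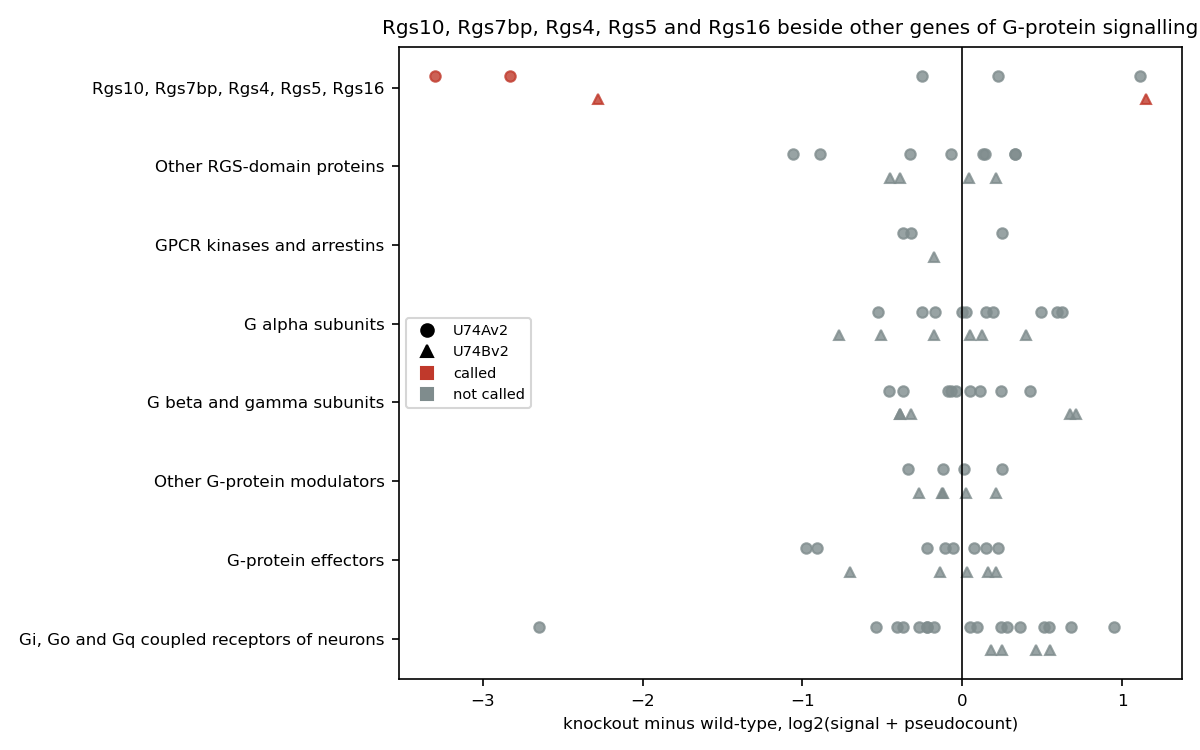
Knockout minus wild-type difference in log2(signal + pseudocount) for every tested probe set of Rgs10, Rgs7bp, Rgs4, Rgs5 and Rgs16 (top row) and for 1 probe set per gene of 7 pathway lists, with circles for U74Av2, triangles for U74Bv2 and red for called differences. Red points occur in the top row only, at -3.30, -2.83, -2.28 and 1.15; most listed genes lie within 1 of 0, and Npy1r lies at -2.65.

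The genes whose signals followed each of the 3 most closely were ranked by the root mean square distance between log2 profiles centred over the arrays. For Rgs10, over 6 arrays, they were Avil, encoding the actin-binding protein advillin of sensory neurons (distance 0.319), Eepd1 (0.376) and the homeobox gene Hoxd1 (0.467). Their knockout minus wild-type differences were -2.72, -2.47 and -2.50, and that of Hoxd1 was not called (limma adjusted p = 0.147). For Rgs7bp, over 5 arrays, they were Dok4, an adaptor downstream of receptor tyrosine kinases measured by a probe set of relaxed design (0.074), Diras2, a small GTPase of the Ras family (0.15), and Plcxd2 (0.157). These differed by -2.37, -2.55 and -2.23, and all 3 were called. For Rgs4, over 5 arrays, they were Pbk, a mitotic kinase (0.064), Irs1, the insulin receptor substrate (0.077), and Ctnnbip1, an inhibitor of beta-catenin and TCF binding (0.099). Of these, Ctnnbip1 (1.21, limma adjusted p = 0.0245) was called, while Pbk (1.07, 0.132) and Irs1 (1.01, 0.0881) were not. Likeness over so few arrays is a description of the signals.

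**Figure D4:**
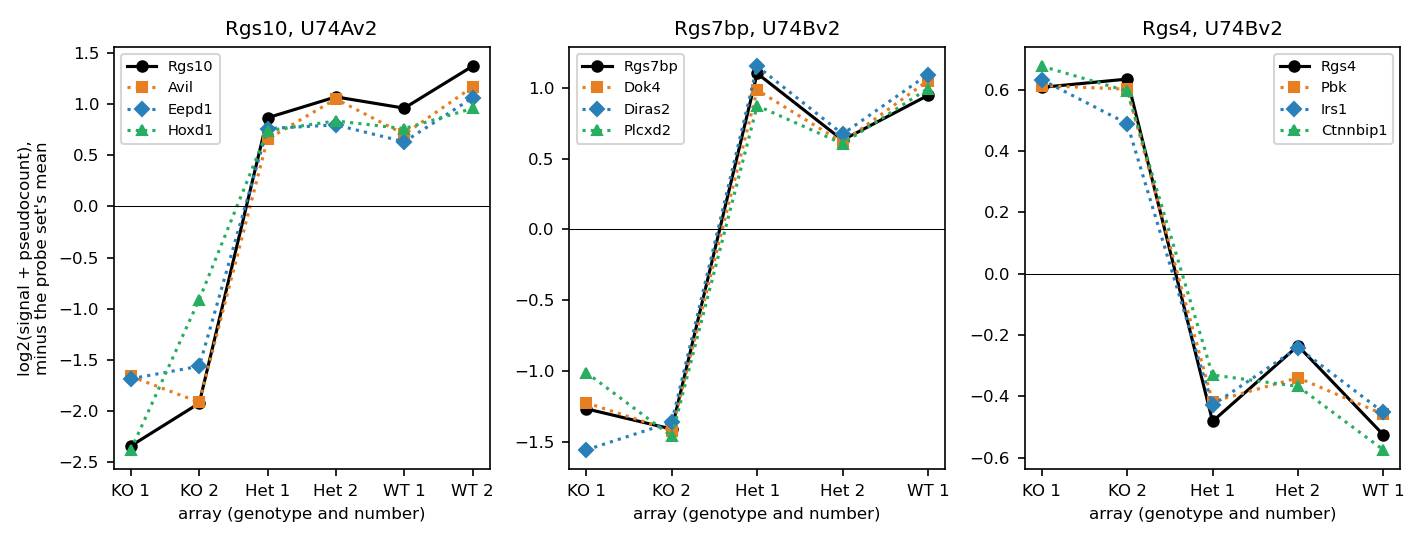
Log2(signal + pseudocount) minus the probe set's own mean on each array for Rgs10, Rgs7bp and Rgs4 (black) and the 3 genes with the smallest distance to each, with the array's genotype and number on the horizontal axis and lines only to guide the eye. The knockout arrays are the low ones in the panels of Rgs10 and Rgs7bp and the high ones in the panel of Rgs4, and heterozygote and wild-type arrays lie together.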

How the data were processed

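Total RNA of pooled trigeminal ganglia was hybridised to 11 arrays, 6 of type U74Av2 and 5 of type U74Bv2. The authors deposited linear intensities, a single signal for each probe set and array, and the submitters' processing notes name MAS5. Its version and target intensity are not stated in those sources. The 2% trimmed mean was 500.26 to 500.29 on U74Av2 and 497.61 to 498.38 on U74Bv2, so the values were not scaled again. No detection calls were used, so dim is not the same as absent.

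Groups came from the sample titles. Symbols came from the platform annotation, updated through Entrez identifiers with a RefSeq table (matched for 10839 of 12488 and 10550 of 12411 probe sets, 0 symbols changed). Probe sets with more than 1 symbol stayed unnamed. Suffixes _f_at, _r_at, _s_at, _i_at and _g_at mark relaxed designs. Promoter windows were matched by symbol for all 6 genes.

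With R 4.3.3 and limma 3.58.1, log2(signal + pseudocount) was modelled by genotype over all arrays of a type, with eBayes and an intensity trend, two-sided. The pseudocount was 0.1 of the mean trimmed mean. Control probe sets (66 on U74Av2, 0 on U74Bv2) and those at or below the 40th percentile of mean log2 signal were left out, which left 7453 and 7446. The test was tried on simulated data. Alternatives were other pseudocounts (shares of 0.02 and 0.4), no filter or the 60th percentile, no trend, quantile normalization, median centring, only 2 genotypes, array number as a block, and leaving out each array.

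Every probe set of the 6 genes is named. Of a pathway list the called genes and otherwise the 2 brightest are named, with the brightest probe set standing for a gene, and all RGS-domain genes may be named. The 3 nearest profiles are named. All tested macrophage markers are named. Other pathway and marker genes (Gnb5, Npy1r, Sox10, Fabp7, Gfra3, Prph, Scn10a, Elavl4, Lyz2) were chosen after their values were seen. The genes, lists and motifs were chosen with earlier results of these data known. Plots used Python 3.11.15 and matplotlib 3.10.9.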

Additional observations from a re-analysis of the deposited data

How the results depend on the processing

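Every called difference of Rgs10, Rgs7bp and Rgs4 kept its direction under all alternatives computed. Counts of called probe sets moved more. On U74Av2, knockout against wild-type gave 11 calls with the filter at the 60th percentile and 130 with array number as a replicate block, and 0 to 15 when 1 array was left out. Knockout against heterozygote gave 8, 129 and 0 to 11. On U74Bv2, knockout against wild-type gave 21 calls without a filter, 40 without the trend, 191 with only 2 genotypes, 216 with the replicate block and 115 to 178 with 1 array left out. Knockout against heterozygote gave 54 without a filter, 81 without the trend and 317 with the block. Leaving out the only wild-type array gave no value for knockout against wild-type.

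With 1 array left out, 160629_at (Rgs10) ranged from -3.50 to -3.09 against wild-type and from -3.31 to -2.89 against heterozygote, and 161765_f_at from -3.05 to -2.61 and from -3.07 to -2.63. Rgs4 (162964_at) ranged from 1.13 to 1.16 and from 0.85 to 1.10. Its calls were lost at 1.15 and 0.98 without a filter and without the trend, and at 1.06 and 0.96 with median centring. With pseudocount shares of 0.02 and 0.4 the Rgs10 differences stayed called, at -3.77 and -2.36 (160629_at) and -3.51 and -1.78 (161765_f_at) against wild-type. Under the replicate block Rgs7 was called at -1.06 against wild-type (limma adjusted p = 0.0293), -0.96 against heterozygote (0.0394) and -1.01 against their mean (0.0137). Its adjusted p otherwise reached 1, and the cause was not tested. Same-numbered U74Av2 arrays deviated together (correlations of 0.53 to 0.62 between genotypes, 0.1 on U74Bv2), but the labels do not say that a number marks a batch, and there were only 2 numbers. Each U74Av2 array correlated most with a same-numbered array of another genotype. On U74Bv2 the knockout arrays correlated most with each other. The main fit has no term for the number, so shared deviations enter its SE and can keep a U74Av2 difference from being called.

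Signs turned only for differences that were not called. Heterozygote minus wild-type for Rgs7bp became 0.02 with quantile normalization and 0.07 with the replicate block, and ranged from -0.32 to 0.16 with 1 array left out. In that comparison left-out ranges were -0.40 to 0.01 (160629_at) and -0.11 to 0.15 (161765_f_at) for Rgs10, -0.34 to 0.04 for Rgs16 and -0.38 to 0.18 for Rgs7. Knockout minus heterozygote ranged from -0.09 to 0.18 for Rgs5 and from -0.30 to 0.09 for Rgs16, and knockout minus the mean of both from 0 to 0.27 for Rgs5. For knockout minus wild-type on U74Av2 the ranges were 0 to 0.26 for Rgs3, -1.08 to 0.42 for Rgs19, -0.40 to 0.27 for Axin1, -0.04 to 0.54 for Grk6, -0.12 to 0.12 for Gnai2, -1.07 to 0.82 for Pcp2, -0.37 to 0.51 for Plcb1, -0.41 to 0.04 for Gabbr1 and -0.09 to 0.12 for Ric8a (-0.01 with median centring). On U74Bv2 they were -1.23 to 0.45 for Rgs3 (0.20 with the replicate block), -0.04 to 0.12 for Snx13 (-0.04 with median centring) and -0.04 to 0.35 for Adcy1.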
